A study of Mus musculus with 27 samples.

Results

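Microglia, the resident macrophages of the brain, were followed through 10 of their genes in the read counts of the whole fetal brain. The genes were chosen by name, as the rows of the gene table with the symbols Csf1r, Cx3cr1, P2ry12, Tyrobp, Trem2, C1qa, C1qb, C1qc, Aif1 and Tmem119. All 10 were found among the 55416 genes of the table. Each of the 27 libraries was made from poly-A RNA of the dissected brain of a female fetus, with 3 libraries for each of 3 strains on d12, d15 and d17 of gestation, where d1 is the day of the vaginal plug. The strains were AKR/J and B6.Cg-Cav1tm1Mls/J (Cav1-null), which the study treats as short-lived, and C57BL/6J, which it treats as long-lived. The Cav1-null mice carry a targeted allele of the caveolin 1 gene in every cell, on a C57BL/6J background, so that their groups are no model of a defect in microglia alone. The labels name no drug or other treatment. They also do not say which fetuses shared a litter, so the p-values measure the spread between these fetuses, which may be partly technical.

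Microglia descend from macrophage precursors of the yolk sac that enter the brain early in gestation and multiply there while neurons are born. They prune synapses, take up dying cells and guide growing vessels. Survival of the cells depends on the receptor CSF1R and its ligands, contact with neurons runs through CX3CR1, and the surface proteins TREM2 and P2RY12 signal damage. Most of the 10 genes are also read in other macrophages, while P2ry12 and Tmem119 are commonly used to tell microglia from them. In bulk RNA of a whole brain, fewer cells of a type and less RNA per cell cannot be told apart.

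The libraries held between 26363697 and 39759702 reads on genes. Levels are in CPM, reads scaled to library size, with TMM factors set over all 27 libraries. Cav1 stood between 0 and 0.503 CPM in the 9 Cav1-null libraries and between 9.43 and 41.1 CPM in the other 18, as the labels say. Summed levels of 8 neural genes lay between 2430 and 7360 CPM over the libraries. The AKR/J d12 libraries stood apart, with summed levels of 10 red blood cell genes of 34300 to 202000 CPM against at most 18200 CPM in any other library. Markers of placenta and yolk sac summed to 2210, 267 and 57.3 CPM in replicates 1, 2 and 3 there, against at most 65.6 CPM elsewhere. Another 4 libraries (AKR/J d15 replicate 2, C57BL/6J d15 replicate 1, C57BL/6J d17 replicate 1 and Cav1-null d12 replicate 3) held 11.1, 11.5, 9.39 and 6.36 times the connective tissue and bone transcripts of the mean of the other libraries of their group. This list was set up after the values had been seen.

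Every one of the 10 genes was read in every library, with 24 reads for Tmem119 in the library where it was lowest and 1048 reads for Csf1r in the library where it was highest. Per kilobase of the canonical transcript, the mean level over the 27 libraries was highest for Tyrobp, at 10.2 CPM per kb, followed by C1qa at 5.33, C1qc at 3.63 and C1qb at 3.26 CPM per kb. P2ry12 stood at 2.62, Trem2 at 2.42, Cx3cr1 at 2.14, Tmem119 at 1.94 and Csf1r at 1.83 CPM per kb. Aif1 was lowest on this length, at 1.06 CPM per kb. The median for Tmem119 was 0.884 CPM per kb, below its mean. The order depended on the length used. Over all annotated exonic bases of a gene Tyrobp was again highest, at 9.1 CPM per kb, followed by C1qa at 3.6 and C1qc at 2.35, but C1qb, at 1.32 CPM per kb, came below P2ry12 at 1.96, Cx3cr1 at 1.72 and Csf1r at 1.5, and Trem2 was lowest, at 0.532 CPM per kb. The spread over libraries was also unequal. Group means of Tyrobp differed by up to 9.82 times and those of Tmem119 by 7.74 times, but those of C1qa by 1.46 times and those of C1qc by 1.61 times. When the 9 group means of a gene were put in order, the libraries of neighbouring groups overlapped at all 8 steps for 8 of the genes. For Tyrobp 1 step was free of overlap, AKR/J d12 above Cav1-null d15. For P2ry12 there were 2 such steps, AKR/J d17 above AKR/J d15 and C57BL/6J d15 above C57BL/6J d12. The share of such steps over all genes was not computed, so these counts are only a description.

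**Figure D1:**
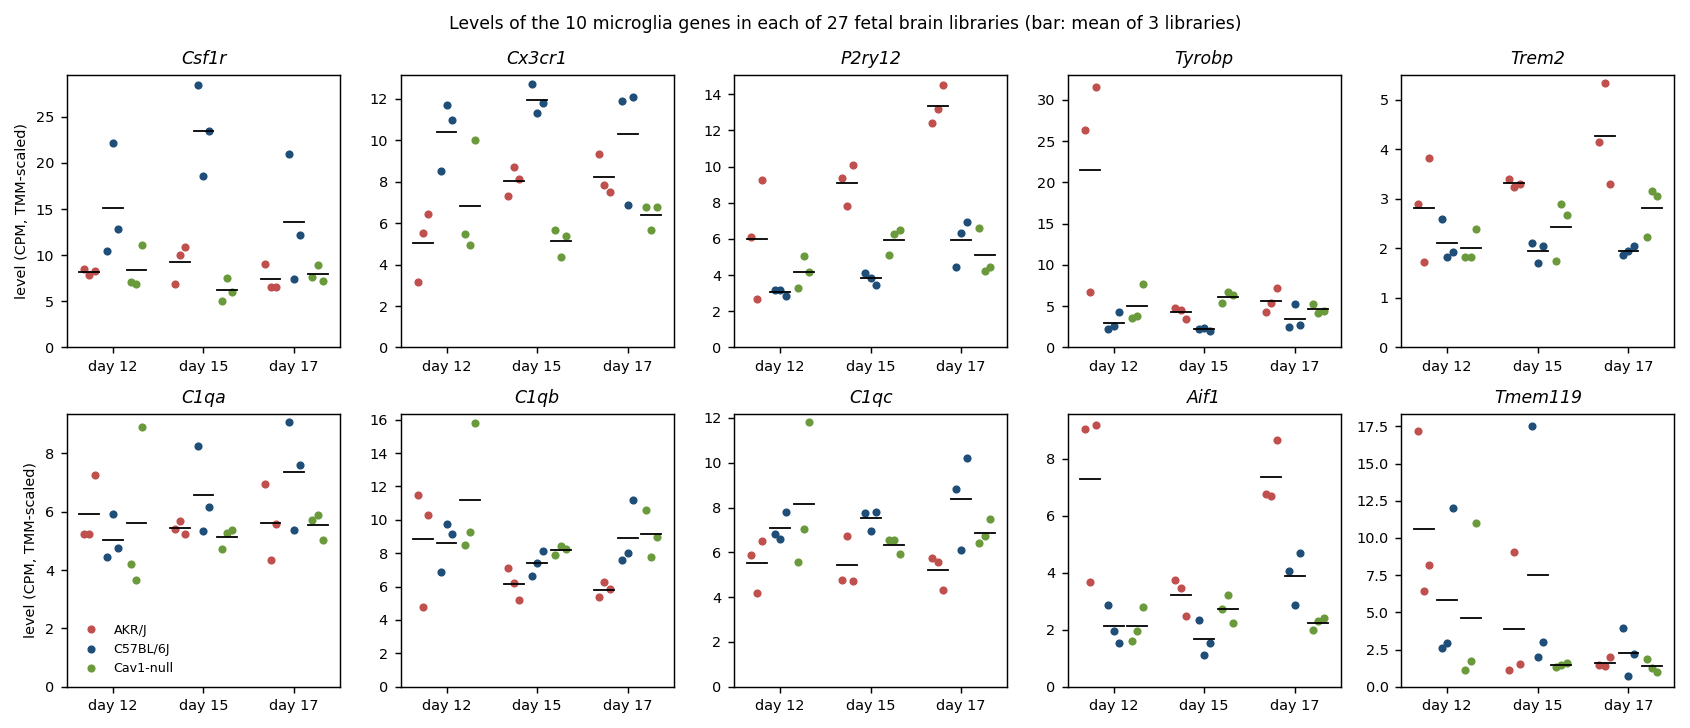
Level of each of the 10 microglia genes (y axis, CPM after TMM scaling, from 0) on d12, d15 and d17 (x axis) in AKR/J (red), C57BL/6J (blue) and Cav1-null (green) fetal brains. Each point is a library and each bar is the mean of 3 libraries. Csf1r lay between 18.6 and 28.4 CPM in C57BL/6J on d15 and at 10.9 CPM or lower in the other strains on that day, and Tyrobp reached 31.6 CPM in AKR/J on d12.

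The first question was whether the genes changed with development in each strain. Between d12 and d15, 1 of the 10 genes was called in AKR/J, where 28.9% of all genes tested were called. None was called in C57BL/6J (background 14.9%) or in Cav1-null mice (background 23.4%) by edgeR's quasi-likelihood test. At an unadjusted p under 0.05 C57BL/6J had 0 and Cav1-null mice had 1, beside 6885 of 19154 and 7279 of 19934 genes tested. DESeq2 called 0 of the 10 in either strain, beside 25.5% and 26.9% of all genes. The likelihood ratio test also called 0, beside 22.1% and 25.2% of all genes. Between d15 and d17, 2 of the 10 were called in AKR/J, against 22.1% of all genes, and 1 in C57BL/6J, against 13% of all genes. None was called in Cav1-null mice (background 27.3%), where 2 had an unadjusted p under 0.05, as did 7692 of all 20245 genes tested. DESeq2 and the likelihood ratio test called 0 there, beside 28.3% and 29.6% of all genes. The median log2 fold change of the 10 genes lay between -0.24 and 0.20 in the 6 comparisons, and that of all genes between -0.04 and 0.03. Its sign could turn with 1 library. The -0.24 of Cav1-null mice between d12 and d15 became 0.25 without Cav1-null d12 replicate 3, the -0.10 of AKR/J became 0.05 without AKR/J d12 replicate 3, and the 0.11 of C57BL/6J became -0.05 without C57BL/6J d15 replicate 1. Between d15 and d17 the 0.08 of AKR/J became -0.01 without AKR/J d17 replicate 1. The comparisons of a strain share its d15 libraries.

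The second question was whether the short-lived strains differed from C57BL/6J on the same day. On d15, 6 of the 10 genes differed between AKR/J and C57BL/6J, 4 of them higher and 2 lower in AKR/J, where 41.1% of all genes were called. Between Cav1-null and C57BL/6J mice 6 genes differed on d15, 3 higher and 3 lower in Cav1-null mice, where 58.6% of all genes were called. The second count is close to the share of all genes, and both comparisons use the same 3 C57BL/6J libraries. The median log2 fold change of the 10 genes on d15 was -0.21 in AKR/J and -0.01 in Cav1-null mice, beside 0.06 and 0.03 for all genes. Without C57BL/6J d15 replicate 1 the value for AKR/J was 0.33, so that its sign rested on this library, and that for Cav1-null mice stayed within -0.02 and 0.02 over single omissions. On d12, 2 genes were higher in AKR/J, against 28.6% of all genes. None of the 10 differed between Cav1-null and C57BL/6J mice on d12 by edgeR's quasi-likelihood test, which called 0% of all genes. Of the 10, 1 had an unadjusted p under 0.05 there, as did 4309 of all 19475 genes tested. DESeq2 and the likelihood ratio test called 0 of the 10, beside 10.5% and 6.52% of all genes. On d17, the quasi-likelihood test called 0 of the 10 genes in AKR/J (background 0.742%) and 0 in Cav1-null mice (background 0.0491%). In AKR/J 6 had an unadjusted p under 0.05, as did 4275 of all 20207 genes tested. DESeq2 and the likelihood ratio test each called 3 there, namely Aif1, P2ry12 and Trem2, beside 6.58% and 5.9% of all genes. In Cav1-null mice 3 had an unadjusted p under 0.05, as did 1538 of all 20358 genes tested. Both other tests called 0 there, beside 0.236% and 0.27% of all genes. Without C57BL/6J d17 replicate 2, 6 of the 10 genes were called in AKR/J and 4 in Cav1-null mice on that day, where the share of all genes called rose as well, to 26.4% and 13.6%.

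An interaction term asked whether a strain's change between days differed from that of C57BL/6J, and it called 0 of the 10 genes in each of the 4 tests by edgeR's quasi-likelihood test. The share of all genes called was 0.0711% for AKR/J against C57BL/6J between d12 and d15, and 0.00468% between d15 and d17. For Cav1-null against C57BL/6J mice it was 0.00472% between d12 and d15 and 0.252% between d15 and d17. Unadjusted p-values under 0.05 were found for 1, 0, 1 and 4 of the 10 genes in the same order. Of all genes tested, 3432 of 21090, 1617 of 21373, 3181 of 21191 and 4683 of 21431 had such a p-value. DESeq2 called 1, 0, 0 and 1 of the 10, beside 4.83%, 0.211%, 2.44% and 6.7% of all genes. The likelihood ratio test called 0, 0, 0 and 1, beside 3.45%, 0.342%, 0.944% and 5.83% of all genes. A change called in AKR/J or C57BL/6J and not in another strain is therefore not shown to differ between them.

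**Figure D2:**
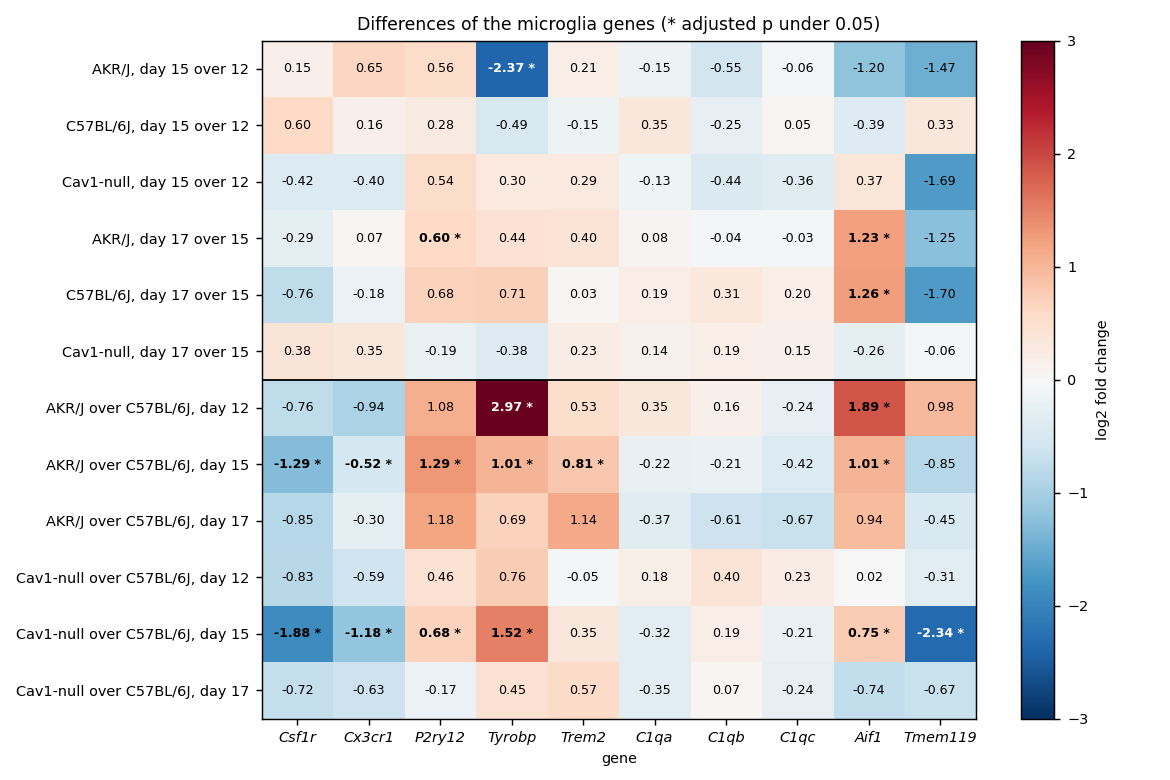
Log2 fold change of each microglia gene (columns) in 12 comparisons (rows), from blue (lower) to red (higher), with the value printed in each cell. An asterisk marks an adjusted p under 0.05 in edgeR's quasi-likelihood test. Both strain comparisons on d15 hold 6 marks each, where 41.1% (AKR/J) and 58.6% (Cav1-null) of all genes were called. No mark falls on C1qa, C1qb or C1qc.

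Csf1r encodes the receptor for CSF1 and IL-34, on which microglia depend for survival. In AKR/J, Csf1r stood at 8.5, 7.82 and 8.23 CPM on d12, at 6.88, 10 and 10.9 CPM on d15, and at 9.06, 6.54 and 6.53 CPM on d17. In C57BL/6J it was at 10.5, 22.1 and 12.8 CPM on d12, at 28.4, 18.6 and 23.4 CPM on d15, and at 21.0, 7.45 and 12.2 CPM on d17. Cav1-null libraries held 7.11, 6.84 and 11.1 CPM on d12, 5.02, 7.54 and 6.01 CPM on d15, and 7.61, 8.95 and 7.17 CPM on d17. The C57BL/6J libraries of d15 lay above every library of the other strains on that day, but on d17 the groups overlapped. The d15 log2 fold change of Csf1r against C57BL/6J was -1.29 in AKR/J (SE 0.22, edgeR adjusted p = 0.00296). For Cav1-null mice it was -1.88 (SE 0.19, edgeR adjusted p = 1.14e-05). Both calls held under each of 15 alternatives, with log2 fold changes of -1.45 to -0.91 and of -2.03 to -1.4. At its 3′ end Csf1r overlaps Hmgxb3 on the opposite strand over 19.85% of its exonic bases, and the counting is not stated to use strand, so that reads from the overlap cannot be told apart.

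Cx3cr1, on chromosome 9 from 119877749 to 119898945 (GRCm39, minus strand), encodes the receptor for fractalkine, which neurons display. Its levels in AKR/J were 3.14, 5.51 and 6.42 CPM on d12, 7.29, 8.7 and 8.13 CPM on d15, and 9.32, 7.86 and 7.51 CPM on d17. C57BL/6J libraries held 8.52, 11.7 and 11 CPM on d12, 12.7, 11.3 and 11.8 CPM on d15, and 11.9, 6.89 and 12.1 CPM on d17. In Cav1-null mice the gene was at 5.49, 4.93 and 10 CPM on d12, at 5.69, 4.35 and 5.38 CPM on d15, and at 6.79, 5.68 and 6.76 CPM on d17. On d15 the 3 strains did not overlap, with C57BL/6J highest and Cav1-null lowest. The log2 fold change against C57BL/6J on d15 was -1.18 in Cav1-null mice (SE 0.15, edgeR adjusted p = 7.03e-05), and this call held under each of 15 alternatives. In AKR/J it was -0.52 (SE 0.14, edgeR adjusted p = 0.0236), and that call was lost in 8 of 15 alternatives, among them without AKR/J d15 replicate 1 (adjusted p = 0.067), without C57BL/6J d15 replicate 1 (adjusted p = 0.0762) and without C57BL/6J d15 replicate 3 (adjusted p = 0.0584). Csf1r and Cx3cr1 were thus both lower in the short-lived strains on d15.

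Genes of other cells differed along with these receptors on d15. Summed levels of 8 endothelial genes were 297, 216 and 278 CPM in C57BL/6J, 106, 127 and 130 CPM in AKR/J, and 87.5, 79.4 and 69.6 CPM in Cav1-null mice. In each strain comparison 7 of the 8 endothelial genes were called lower, beside 41.1% of all genes called in either direction in AKR/J and 58.6% in Cav1-null mice. For the 8 neural genes, C57BL/6J libraries summed to 6630 to 7360 CPM, AKR/J libraries to 3770 to 5770 CPM and Cav1-null libraries to 5080 to 5180 CPM. Of the 10 connective tissue and bone genes, 7 were called lower in Cav1-null mice on d15, with a median log2 fold change of -3.25 over the list, and 0 in AKR/J by edgeR's quasi-likelihood test (0 also at an unadjusted p under 0.05), with a median of -0.94. The library highest in Csf1r was also the highest in the sum of the connective tissue and bone genes in 6 of 9 groups, of the endothelial genes in 6 of 9 and of the genes of macrophages at the borders of the brain in 5 of 9. For Cx3cr1 this was so in 5, 7 and 6 of 9 groups, in the same order of lists. The part of these shifts in the Csf1r and Cx3cr1 values was not tested.

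P2ry12, on chromosome 3 from 59123682 to 59170429 (GRCm39, minus strand), encodes the receptor for ADP that steers microglial processes. In AKR/J, P2ry12 stood at 6.11, 2.69 and 9.27 CPM on d12, at 9.36, 7.83 and 10.1 CPM on d15, and at 12.4, 13.2 and 14.5 CPM on d17. The C57BL/6J values were 3.17, 3.18 and 2.87 CPM on d12, 4.14, 3.83 and 3.48 CPM on d15, and 4.47, 6.33 and 6.95 CPM on d17. In Cav1-null mice it was at 3.31, 5.05 and 4.16 CPM on d12, at 5.13, 6.25 and 6.48 CPM on d15, and at 6.63, 4.2 and 4.46 CPM on d17. Every AKR/J library of d15 and d17 held more P2ry12 than any library of the other strains. The rise from d15 to d17 in AKR/J was called, with a log2 fold change of 0.60 (SE 0.14, edgeR adjusted p = 0.0208). It was not called without AKR/J d15 replicate 1 (adjusted p = 0.0511), without AKR/J d17 replicate 2 (adjusted p = 0.0899) or without AKR/J d17 replicate 3 (adjusted p = 0.0988). It was also lost with the GC and length correction (0.40, adjusted p = 0.0856) and with all 27 libraries in 1 model (adjusted p = 0.225). The level on d15 was higher than in C57BL/6J in AKR/J, with a log2 fold change of 1.29 (SE 0.16, edgeR adjusted p = 0.000791), and this held under each of 15 alternatives, though at 0.73 with a correction for transcript GC content and length.

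In Cav1-null mice P2ry12 was also called higher than in C57BL/6J on d15, with a log2 fold change of 0.68 (SE 0.17, edgeR adjusted p = 0.00683). With all 27 libraries in 1 model the adjusted p was 0.0986. The sign turned, to -0.14 (adjusted p = 0.511), when the trend of the counts with GC content and length was removed from each library. The longest transcript of P2ry12 has a GC content of 40.01%, against 49.13% to 58.49% in the other 9 genes. P2ry12 lies within Med12l, a gene of the opposite strand that covers 9.17% of the exonic bases of P2ry12. Of the split reads that the authors assigned to P2ry12, 571 spanned an intron of Med12l and 67 an intron of P2ry12 itself.

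Tyrobp, on chromosome 7 from 30113170 to 30117010 (GRCm39, plus strand), encodes the signalling adaptor DAP12, which TREM2 needs to signal. AKR/J libraries held 26.3, 6.76 and 31.6 CPM of Tyrobp on d12, 4.78, 4.58 and 3.41 CPM on d15, and 4.32, 5.37 and 7.16 CPM on d17. C57BL/6J libraries held 2.18, 2.56 and 4.25 CPM on d12, 2.22, 2.38 and 1.99 CPM on d15, and 2.48, 5.24 and 2.68 CPM on d17. In Cav1-null mice Tyrobp was at 3.52, 3.77 and 7.72 CPM on d12, at 5.34, 6.7 and 6.41 CPM on d15, and at 5.29, 4.17 and 4.46 CPM on d17. Replicates 1 and 3 of AKR/J d12 were far above every other library. From d12 to d15 Tyrobp fell in AKR/J with a log2 fold change of -2.37 (SE 0.52, edgeR adjusted p = 0.0124), but without AKR/J d15 replicate 3 the adjusted p was 0.0605. On d12 it was higher in AKR/J than in C57BL/6J by a log2 fold change of 2.97 (SE 0.56, edgeR adjusted p = 0.0118), and without C57BL/6J d12 replicate 2 the adjusted p was 0.0629. The interaction for this fall between AKR/J and C57BL/6J had an edgeR adjusted p of 0.179, and DESeq2 called it.

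The genes that moved with Tyrobp on d12 in AKR/J included genes of leukocytes, platelets and red blood cells. Summed levels of 11 monocyte and neutrophil genes were 68.2, 9.96 and 32.2 CPM in replicates 1, 2 and 3, against 7.03 to 10.2 CPM in the other d12 libraries. Pf4, a gene of platelets and border macrophages, stood at 58.8, 15.0 and 109 CPM, and Lyz2, lysozyme of macrophages and granulocytes, at 43.3, 16.1 and 29.8 CPM. Summed levels of the red blood cell genes were 102000, 34300 and 202000 CPM, so that replicate 2 was lowest in these measures as it was in Tyrobp. Of the border macrophage genes, among them Pf4, 1 of 6 tested was called higher in AKR/J than in C57BL/6J on d12 and 0 lower. Of the 12 leukocyte genes, among them Lyz2, 5 were called higher and 1 lower. In that comparison 28.6% of all genes were called in either direction. The part of blood cells and of tissue other than brain in the Tyrobp level was not tested.

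On d15, Tyrobp was higher in AKR/J than in C57BL/6J, with a log2 fold change of 1.01 (SE 0.22, edgeR adjusted p = 0.00971) and no overlap between the groups. The Cav1-null libraries of d15 also lay above those of C57BL/6J, with a log2 fold change of 1.52 (SE 0.18, edgeR adjusted p = 4.64e-05). The call in Cav1-null mice held under each of 15 alternatives. The call in AKR/J was lost in 1 of 15, when all 27 libraries were fitted in 1 model (adjusted p = 0.121), and the GC and length correction brought it to 0.65 (adjusted p = 0.0482). Red blood cell genes on d15 summed to 811 to 1070 CPM in C57BL/6J mice, 2040 to 3150 CPM in AKR/J mice and 2910 to 3610 CPM in Cav1-null mice. Monocyte and neutrophil genes summed to 3.75 to 7.26, 7.59 to 8.44 and 4.43 to 9.65 CPM in the same order. The part of blood in this difference was not tested.

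Trem2, on chromosome 17 from 48653429 to 48661175 (GRCm39, plus strand), encodes the lipid and lipoprotein receptor that pairs with DAP12. Trem2 stood between 1.73 and 5.33 CPM in AKR/J, between 1.71 and 2.59 CPM in C57BL/6J and between 1.74 and 3.16 CPM in Cav1-null libraries. On d15 it was at 3.41, 3.25 and 3.31 CPM in AKR/J and at 2.11, 1.71 and 2.05 CPM in C57BL/6J. These groups did not overlap, and the log2 fold change was 0.81 (SE 0.19, edgeR adjusted p = 0.012). Without C57BL/6J d15 replicate 2 the adjusted p was 0.0561, with no filter on low counts 0.0506 and with all 27 libraries in 1 model 0.0519. The receptor and its adaptor were thus both higher in AKR/J than in C57BL/6J on d15. In Cav1-null mice the log2 fold change of Trem2 against C57BL/6J on d15 was 0.35 and was not called. On d17 Trem2 did not overlap between AKR/J and C57BL/6J either, but the log2 fold change of 1.14 was not called (edgeR adjusted p = 0.103).

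C1qa, C1qb and C1qc encode the A, B and C chains of C1q, the protein that starts the classical complement pathway and tags synapses for removal. They lie beside each other on the minus strand of chromosome 4 (GRCm39), C1qb from 136606009 to 136613511, C1qc from 136616466 to 136620376 and C1qa from 136623223 to 136626161. C1qa lay between 3.67 and 9.08 CPM over the 27 libraries, C1qb between 4.76 and 15.8 CPM and C1qc between 4.18 and 11.8 CPM. Group means of C1qa ran from 5.04 ± 0.778 CPM (SD, n = 3) in C57BL/6J on d12 to 7.34 ± 1.88 CPM in C57BL/6J on d17. For C1qb they ran from 5.82 ± 0.447 CPM in AKR/J on d17 to 11.2 ± 4.0 CPM in Cav1-null mice on d12, and for C1qc from 5.21 ± 0.78 CPM in AKR/J on d17 to 8.4 ± 2.09 CPM in C57BL/6J on d17. None of the chains was called in the 12 comparisons or the 4 interactions by edgeR's quasi-likelihood test. At an unadjusted p under 0.05 there were 2 results, C1qb (log2 fold change -0.61, edgeR adjusted p = 0.183) and C1qc (-0.67, adjusted p = 0.182), both for AKR/J against C57BL/6J on d17. DESeq2 and the likelihood ratio test called 0. The quasi-likelihood test called C1qb between d12 and d15 in AKR/J without AKR/J d12 replicate 2, and C1qc in AKR/J against C57BL/6J on d15 without AKR/J d15 replicate 2 and on d17 without C57BL/6J d17 replicate 2. Cav1-null d12 replicate 3 held the highest levels of C1qb and C1qc, and it is a library with a high connective tissue level. The group means of C1qa stayed within 1.46 times of each other, and P2ry12, which the same cells read, within 4.36 times.

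The promoters are shown because the transcription factor PU.1, which drives genes of the macrophage lineage, is known to bind DNA around the letters GAGGAA. RefSeq promoter windows (GRCm38.p6) were given for 6 of the 10 genes, Aif1, Cx3cr1, P2ry12, C1qb, C1qc and Trem2. Within 250 bases before the start, GAGGAA or its reverse TTCCTC was found in 4 of the 6, against 23.3% of 32851 windows of all genes. The 4 windows are printed from 5′ to 3′ on the strand of the gene, with the match in capitals, in Aif1 at chr17:35176053-35176302 (minus strand), in C1qb at chr4:136886201-136886450 (minus strand), in C1qc at chr4:136892915-136893164 (minus strand) and in Trem2 at chr17:48346151-48346400 (plus strand).
Aif1: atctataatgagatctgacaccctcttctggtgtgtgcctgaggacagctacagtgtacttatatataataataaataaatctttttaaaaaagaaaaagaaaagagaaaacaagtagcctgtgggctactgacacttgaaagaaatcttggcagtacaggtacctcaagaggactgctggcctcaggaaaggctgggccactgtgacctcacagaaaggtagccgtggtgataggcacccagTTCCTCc
C1qb: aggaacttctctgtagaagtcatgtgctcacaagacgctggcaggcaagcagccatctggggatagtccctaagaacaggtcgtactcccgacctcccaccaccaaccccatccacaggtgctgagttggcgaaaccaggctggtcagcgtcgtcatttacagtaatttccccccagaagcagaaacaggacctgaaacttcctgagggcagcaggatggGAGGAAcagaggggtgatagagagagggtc
C1qc: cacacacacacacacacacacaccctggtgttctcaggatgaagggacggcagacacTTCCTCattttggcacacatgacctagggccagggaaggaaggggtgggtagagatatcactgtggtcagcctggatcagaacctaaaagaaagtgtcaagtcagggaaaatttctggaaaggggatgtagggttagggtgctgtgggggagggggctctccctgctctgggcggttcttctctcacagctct
Trem2: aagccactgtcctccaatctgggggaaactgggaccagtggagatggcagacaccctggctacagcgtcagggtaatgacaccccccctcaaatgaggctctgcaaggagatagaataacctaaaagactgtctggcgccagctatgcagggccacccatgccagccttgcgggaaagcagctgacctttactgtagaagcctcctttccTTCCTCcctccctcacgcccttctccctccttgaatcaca
The match began 7 bases before the start in Aif1, 30 in C1qb, 193 in C1qc and 40 in Trem2. A match of letters is a description and not a bound site. Csf1r, Tyrobp, C1qa and Tmem119 were not in the promoter table.

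Aif1, on chromosome 17 from 35387384 to 35395053 (GRCm39, minus strand), encodes IBA1, the calcium-binding protein stained to show microglia. Aif1 stood at 9.04, 3.67 and 9.17 CPM on d12 in AKR/J, at 3.73, 3.46 and 2.49 CPM on d15, and at 6.77, 6.68 and 8.66 CPM on d17. In C57BL/6J the levels were 2.88, 1.97 and 1.55 CPM on d12, 2.33, 1.13 and 1.52 CPM on d15, and 4.06, 2.88 and 4.69 CPM on d17. Cav1-null libraries held 1.62, 1.95 and 2.81 CPM on d12, 2.72, 3.22 and 2.24 CPM on d15, and 1.98, 2.32 and 2.42 CPM on d17. Every d17 library lay above every d15 library in AKR/J and in C57BL/6J, while the days overlapped in Cav1-null mice. From d15 to d17 Aif1 rose in AKR/J by a log2 fold change of 1.23 (SE 0.23, edgeR adjusted p = 0.00836) and in C57BL/6J by 1.26 (SE 0.33, adjusted p = 0.045). The rise in AKR/J had an adjusted p of 0.0527 without AKR/J d17 replicate 3. In C57BL/6J the call was lost without d15 replicate 1 (adjusted p = 0.0635), d15 replicate 2 (0.142), d15 replicate 3 (0.136) or d17 replicate 3 (0.17).

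In Cav1-null mice the log2 fold change of Aif1 from d15 to d17 was -0.26 and was not called. The difference from the change in C57BL/6J was -1.54 (SE 0.39), with an edgeR adjusted p of 0.0755 for the interaction, which DESeq2 and the likelihood ratio test called. Without C57BL/6J d17 replicate 1, a library high in connective tissue transcripts, the quasi-likelihood test called this interaction for Aif1, Csf1r, Tyrobp and P2ry12, and for 26.1% of all genes.

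Between strains, Aif1 was higher in AKR/J than in C57BL/6J on d12, with a log2 fold change of 1.89 (SE 0.45, edgeR adjusted p = 0.0194). The adjusted p was 0.0698 without AKR/J d12 replicate 1, 0.0713 without AKR/J d12 replicate 3 and 0.0894 without C57BL/6J d12 replicate 2. Replicates 1 and 3 of AKR/J d12 are the libraries with the highest red blood cell levels, and their part in the Aif1 level was not tested. On d15 the log2 fold change of Aif1 against C57BL/6J was 1.01 in AKR/J (SE 0.32, edgeR adjusted p = 0.0392). That of Cav1-null mice was 0.75 (SE 0.29, edgeR adjusted p = 0.049). In the latter comparison the groups overlapped. These calls of Aif1 on d15 were lost in 6 and in 8 of 15 alternatives. They did not hold without C57BL/6J d15 replicate 2 (adjusted p = 0.119 in AKR/J and 0.127 in Cav1-null mice), C57BL/6J d15 replicate 3 (0.124 and 0.126), AKR/J d15 replicate 1 (0.125) or 2 (0.0807), and Cav1-null d15 replicate 1 (0.0935) or 2 (0.141). Gm17705, a long noncoding gene of the opposite strand, covers 16.60% of the exonic bases of Aif1.

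Tmem119, on chromosome 5 from 113931781 to 113938577 (GRCm39, minus strand), is a surface marker of adult microglia that bone-forming cells read as well. AKR/J libraries held 17.2, 6.46 and 8.18 CPM on d12, 1.11, 9.03 and 1.51 CPM on d15, and 1.47, 1.42 and 1.99 CPM on d17. In C57BL/6J Tmem119 was at 2.63, 2.96 and 12.0 CPM on d12, at 17.5, 2.03 and 3.04 CPM on d15, and at 3.92, 0.706 and 2.23 CPM on d17. Cav1-null libraries held 1.13, 1.73 and 11 CPM on d12, 1.33, 1.45 and 1.6 CPM on d15, and 1.85, 1.24 and 1.01 CPM on d17. In AKR/J d15, C57BL/6J d12, C57BL/6J d15 and Cav1-null d12 a single library stood well above the other 2. The library with the highest Tmem119 was also the library with the highest summed level of the 10 connective tissue and bone genes in 7 of 9 groups. On d15 that sum was 5300, 344 and 575 CPM in C57BL/6J, 124, 1340 and 118 CPM in AKR/J, and 80, 182 and 111 CPM in Cav1-null mice. Tmem119 was called lower in Cav1-null than in C57BL/6J mice on d15, with a log2 fold change of -2.34 (SE 0.70, edgeR adjusted p = 0.0153). Without C57BL/6J d15 replicate 1, the library with the most connective tissue transcripts, it was -0.76 (adjusted p = 0.0406). Without Cav1-null d15 replicate 1 the adjusted p was 0.0509. The part of connective tissue in these values was not tested.

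**Figure D3:**
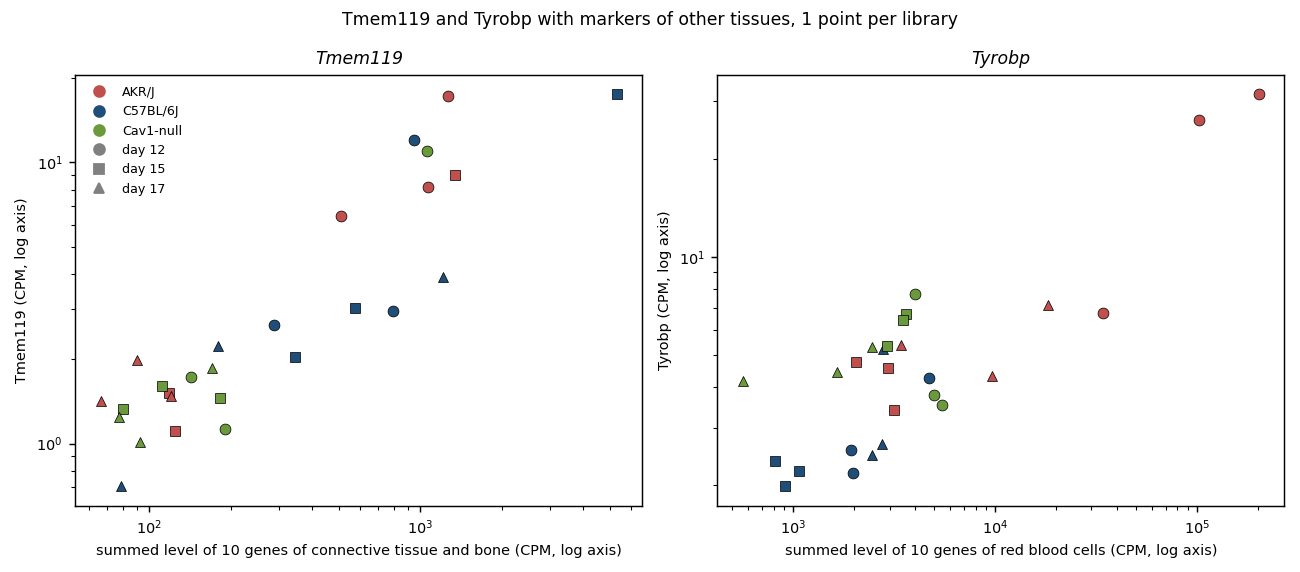
Left, Tmem119 (y axis, CPM) against the summed level of 10 connective tissue and bone genes (x axis, CPM). Right, Tyrobp (y axis, CPM) against the summed level of 10 red blood cell genes (x axis, CPM). Each point is 1 of 27 libraries, all axes are logarithmic, colour gives the strain and shape the day. The library with 5300 CPM of connective tissue genes has the highest Tmem119, 17.5 CPM, and the library with 202000 CPM of red blood cell genes has the highest Tyrobp, 31.6 CPM.

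Split reads, which run across a gap in the genome such as an intron, were listed by the authors under gene names in a separate table. The table held junctions for 7 of the 10 genes. It listed none for Cx3cr1, C1qa and C1qb, and a 0 in it can stand for reads that were filtered out. The exon ends at the most read junction of Tyrobp and of Aif1 are shown because both genes were called between days and had the most split reads among such genes. The bases are those of GRCm39, 25 on each side of the join and all coding, read on the strand of the gene, with the last 3 bases of exon 3 and the first 3 bases of exon 4 in capitals.
Tyrobp: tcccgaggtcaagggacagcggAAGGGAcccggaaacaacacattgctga
Aif1: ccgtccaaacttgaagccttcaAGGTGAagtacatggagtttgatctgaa
The intron removed in Tyrobp lies at chr7:30114076-30115056 on the plus strand and spans 981 bases. That of Aif1 lies at chr17:35390781-35391103 on the minus strand and spans 323 bases.

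Across the Tyrobp junction, AKR/J libraries had 250, 77 and 248 reads on d12 and 58, 59 and 44 on d15, without normalization to depth. C57BL/6J libraries had 23, 38 and 24 reads on d15, and Cav1-null libraries 48, 92 and 58. The C57BL/6J reads of d15 were fewer than those of every library of the other strains on that day. Across the Aif1 junction, AKR/J libraries had 24, 36 and 18 reads on d15 and 37, 48 and 66 on d17, and C57BL/6J libraries 27, 5 and 14 on d15 and 16, 21 and 17 on d17. The days thus did not overlap in AKR/J but overlapped in C57BL/6J. Across the most read Csf1r junction, C57BL/6J libraries had 39, 15 and 34 reads on d15, AKR/J libraries 9, 10 and 11, and Cav1-null libraries 2, 11 and 2. The order of the strains on d15 was that of the gene counts for Tyrobp and Csf1r, but not for every gene. Across the intron of P2ry12 itself, the d15 reads summed to 9 in C57BL/6J, 5 in Cav1-null and 4 in AKR/J libraries. AKR/J was highest in the gene counts, but so few reads, not scaled to depth, cannot set an order of the strains. The C57BL/6J libraries of d15 held 37191332 to 39759702 reads on genes, against at most 30160663 in the other strains on that day. Over all days AKR/J was highest across this intron too, with 32 reads, 13 of them in AKR/J d12 replicate 3. Cav1-null libraries summed to 14 there and C57BL/6J libraries to 21. Across the most read junction of Trem2 the d15 reads summed to 21 in C57BL/6J, 38 in Cav1-null and 35 in AKR/J libraries. Cav1-null was thus highest where AKR/J was highest in the gene counts.

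A less read junction of Aif1, at chr17:35390170-35390738, had reads in 9 of 9 AKR/J libraries, 4 of 9 C57BL/6J libraries and 5 of 9 Cav1-null libraries. The AKR/J libraries summed to 60 reads there, the C57BL/6J libraries to 8 and the Cav1-null libraries to 10, beside 386, 131 and 173 reads across the junction printed here. Reads across the Tmem119 junction were 42, 3 and 6 in C57BL/6J on d15 and 0, 0 and 12 in Cav1-null mice on d12, where the library high in the gene count was also high in split reads. In AKR/J on d15 they were 3, 4 and 8, and replicate 2, the highest in the gene count, was not the highest in split reads.

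**Figure D4:**
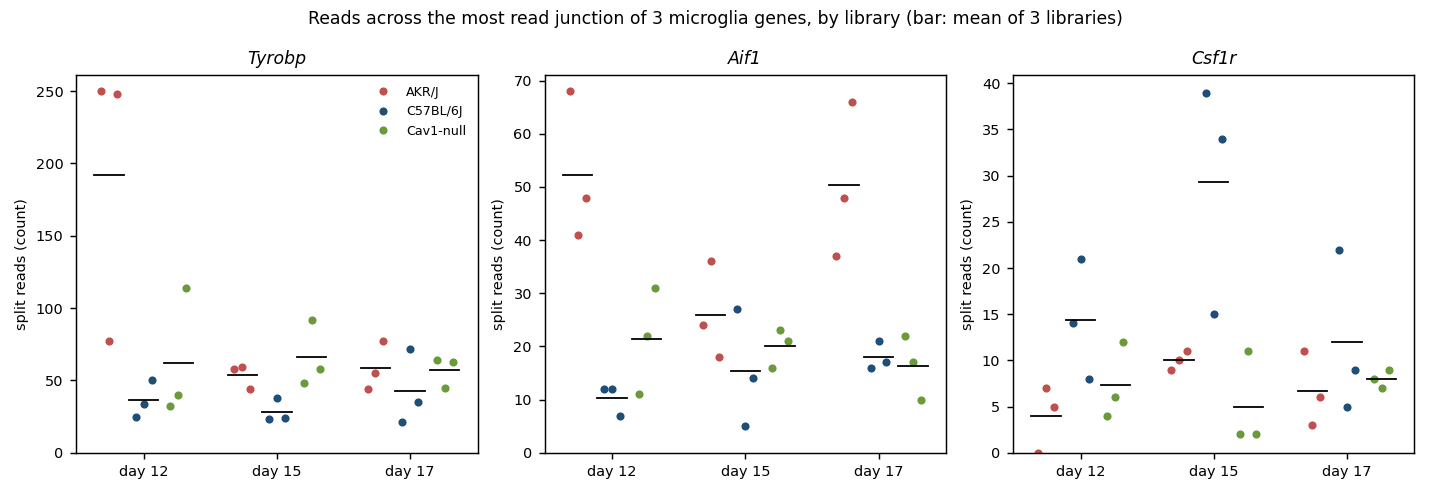
Reads (y axis, count without normalization, from 0) across the most read junction of Tyrobp, Aif1 and Csf1r on d12, d15 and d17 (x axis) in AKR/J (red), C57BL/6J (blue) and Cav1-null (green) mice. Each point is a library and each bar is the mean of 3 libraries. Tyrobp reached 250 reads in AKR/J on d12, and Csf1r reached 39 reads in C57BL/6J on d15.

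The 10 genes did not share a single profile over the libraries. Correlations are given over 27 libraries on log2(CPM + 1) as a description, since the libraries share strains, days and depth. Among the 45 pairs, Pearson's r was highest for P2ry12 with Trem2 (0.77), Cx3cr1 with Csf1r (0.768), Aif1 with P2ry12 (0.684) and C1qb with C1qc (0.677). It was lowest for Cx3cr1 with Tyrobp (-0.628), Csf1r with Tyrobp (-0.501) and Csf1r with P2ry12 (-0.429). Csf1r and Cx3cr1 thus ran opposite to Tyrobp, although each of them is read in microglia. With the mean of the other 9 genes, r ranged from 0.085 for P2ry12 to 0.662 for C1qa.

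**Figure D5:**
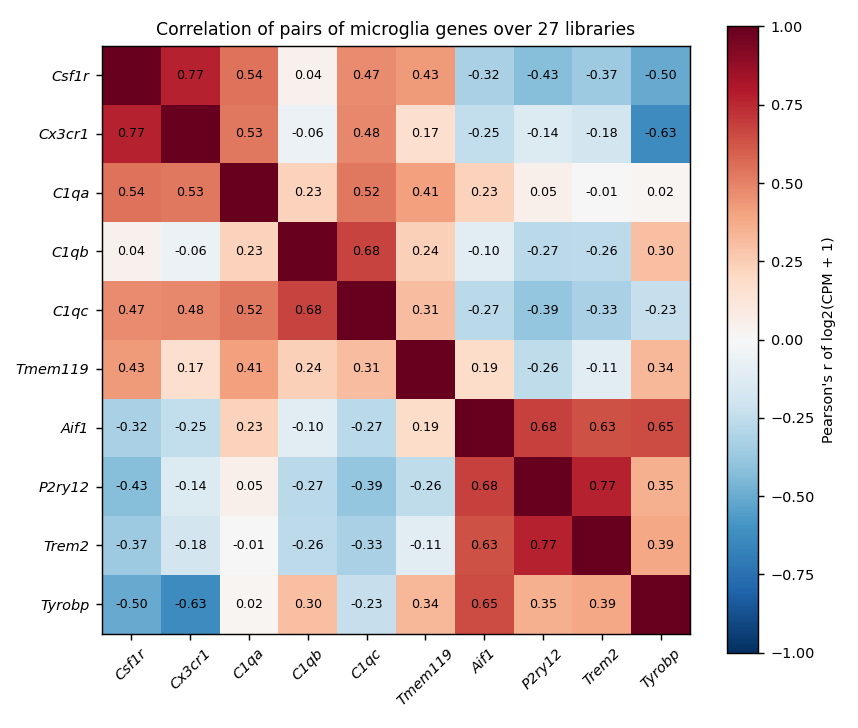
Pearson's r between each pair of the 10 microglia genes over 27 libraries, computed on log2(CPM + 1) and coloured from blue (-1) to red (1). Cx3cr1 with Csf1r (0.768) and P2ry12 with Trem2 (0.77) are among the highest pairs, and Cx3cr1 with Tyrobp (-0.628) is the lowest.

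The 10 genes outside the list whose profile came closest to the mean profile of the 10 microglia genes were Degs1, Apod, Vangl1, Cldn1, Sdc2, Mylip, Sgms1, Stom, Pmp22 and Acacb, with r of 0.823 for Degs1 to 0.748 for Acacb over 27 libraries and 16433 genes compared. None of these is on the lists of microglial, macrophage or leukocyte genes used here.

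Of the ligands of these receptors, Csf1 (ligand of CSF1R) lay between 4.34 and 22.3 CPM and Il34, the second ligand of CSF1R, between 0.289 and 3.47 CPM. Csf1 was lower than in C57BL/6J on d15 in AKR/J (log2 fold change -0.85, SE 0.21, edgeR adjusted p = 0.0164). The value for Cav1-null mice was -1.38 (SE 0.24, edgeR adjusted p = 0.000605). Il34 rose from d15 to d17 in Cav1-null mice by 1.03 (SE 0.31, edgeR adjusted p = 0.0231). Cx3cl1, which encodes fractalkine, rose from d12 to d15 in C57BL/6J by 1.20 and from d15 to d17 in AKR/J by 0.82 and in Cav1-null mice by 1.17 on the log2 scale. Its d15 level was lower in AKR/J by -1.86 and in Cav1-null mice by -1.78 than in C57BL/6J (edgeR adjusted p = 0.000932 and 3.48e-06). On d15 the receptor genes Csf1r and Cx3cr1 and the ligand genes Csf1 and Cx3cl1 were called lower in both short-lived strains, which were compared with the same 3 libraries. The call of Cx3cr1 in AKR/J was lost in 8 of 15 alternatives. Of all genes, 41.1% were called in AKR/J and 58.6% in Cav1-null mice in these comparisons. Other microglia genes were called higher there, 4 in AKR/J and 3 in Cav1-null mice.

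Apoe, a lipoprotein gene of glia and a ligand of TREM2, rose from d15 to d17 in all 3 strains. The log2 fold change was 1.54 in Cav1-null mice (edgeR adjusted p = 1.5e-06), 1.32 in C57BL/6J (0.026) and 0.71 in AKR/J (0.0246). Of the partners of DAP12, Inpp5d, a phosphatase that limits its signal, was lower in AKR/J (-0.80) and Cav1-null mice (-0.79) than in C57BL/6J on d15. Tgfb1, a cytokine that microglia need, was lower by -1.20 and -2.10. The kinase gene Syk lay between 2.98 and 10.8 CPM, Plcg2 between 0.377 and 2.96 CPM and Hcst between 0 and 1.24 CPM, and none of these passed the test in a comparison. In all, 5 of the 8 tested ligands and partners were lower in AKR/J on d15 and 5 of 8 in Cav1-null mice, and no member of the list was called higher there. Of all genes, 41.1% and 58.6% were called in these comparisons.

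Among 8 transcription factors of the myeloid lineage, Spi1, which encodes PU.1, lay between 0.471 and 4.71 CPM, Irf8 between 1.07 and 4.46 CPM and Irf5 between 0.314 and 2.23 CPM, and none of them was called. Ikzf1 rose from d12 to d15 in C57BL/6J by a log2 fold change of 0.83 and in Cav1-null mice by 1.44, and from d15 to d17 in AKR/J by 1.03. Bhlhe41 rose in C57BL/6J by 1.29 from d12 to d15 and by 0.70 from d15 to d17, and in Cav1-null mice by 0.53 from d15 to d17. Runx1 and Cebpa were lower in Cav1-null than in C57BL/6J mice on d15, by -1.17 and -0.80, and Ikzf1 was lower in AKR/J on that day, by -0.70.

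Among 10 further genes of the microglial signature, Gpr34, a lipid receptor, rose from d15 to d17 in AKR/J by 1.06, while Sall1 fell by 0.98 on the log2 scale. Sall1 also fell in C57BL/6J by 1.64 and in Cav1-null mice by 0.55. Sall1, the most abundant gene of this list at 18 to 118 CPM, is also a gene of neural progenitors. From d12 to d15, 0 of the 10 were called in any strain by edgeR's quasi-likelihood test. It called 14.9% of all genes in C57BL/6J over these days. The share was 23.4% for Cav1-null mice and 28.9% for AKR/J. An unadjusted p under 0.05 was found, among others, for Slco2b1 in AKR/J and in C57BL/6J, and for Gpr34, Sall1 and P2ry6 in Cav1-null mice. Of all genes tested, 7279 of 19934 had such a p-value in Cav1-null mice. The counts were 6885 of 19154 for C57BL/6J and 8225 of 19935 for AKR/J. The level of this list on d15 in Cav1-null against C57BL/6J mice was higher for 2 genes (Gpr34 by 1.23 and Fcrls by 0.73) and lower for 4, among them Sall1, Slco2b1 and P2ry6. Of all genes, 58.6% were called in this comparison. For AKR/J against C57BL/6J on d15, 0 of the 10 were higher and 2 lower (Sall1 and Slco2b1), where 41.1% of all genes were called.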

How the data were processed

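The authors trimmed the reads with cutadapt and fastp and aligned them to GRCm39 with STAR. They deposited whole-number read counts per gene, without normalization, and a table of split-read counts per junction, from which they had dropped multi-mapped reads and junctions with short overhangs or few reads. The counting tool and its use of strand are not given in the sources used here.

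Groups were taken from the strain and day in the labels. Each comparison was fitted on its 6 libraries over all genes, and each interaction on 12, in R 4.3.3 with edgeR 4.0.16 (filterByExpr, TMM, quasi-likelihood test), and p-values were adjusted over all genes tested by the Benjamini-Hochberg method, with a threshold of 0.05. The SE is the log2 fold change, without its sign, over the square root of F. Alternatives were DESeq2 1.42.0, edgeR's likelihood ratio test, RLE factors, library sizes alone, no filter on low counts, a replicate block, 1 model of all 27 libraries and each library left out. A correction for transcript GC content and length, and the omission of libraries high in connective tissue transcripts, were chosen after seeing the data. The fits were tested on simulated data. Figures were drawn in Python 3.11.15 with matplotlib 3.10.9.

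The 10 genes and the 13 lists of other genes were chosen with earlier results of these data known. By rule, all 10 genes, the ligands, partners and myeloid transcription factors were named, and of each further list the most abundant gene and the called genes with the largest change between days. Some genes of these lists are not reported here. Likeness was ranked over genes with a mean of at least 1 CPM. Other genes of those lists named in the report and the closing section were picked after their values were seen. No libraries of a group were identical. Intervals were not computed, and the depth of 26363697 to 39759702 reads on genes left between 24 and 1048 reads per library on a microglia gene.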

Additional observations from a re-analysis of the deposited data

How the results depend on the processing

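The count of microglia genes called moved with the settings, and so did the share of all genes called, which is given where it moved far. Between d12 and d15 in AKR/J, where 1 gene was called, the count was 2 with DESeq2, with the likelihood ratio test, with the GC and length trend removed and without the libraries high in connective tissue transcripts, and 3 with all 27 libraries in 1 model (41.1% of all genes). Leaving out single libraries gave 0 (without AKR/J d15 replicate 3, 12.4% of all genes) to 3 (without AKR/J d12 replicate 2, 43.5%). Between d15 and d17 in AKR/J, where 2 were called, the trend removal and the model of all 27 libraries gave 1 each, and single omissions 0 (without d17 replicate 3, 8.32% of all genes) to 2. In C57BL/6J single omissions gave 0 to 1 between d12 and d15 (Csf1r, without d12 replicate 2, 29.8% of all genes). Between d15 and d17, where 1 was called, DESeq2 gave 2, omission of high-connective libraries 3, and single omissions 0 (without any d15 library or d17 replicate 3, 0.767% to 3.79% of all genes) to 3 (without d17 replicate 1, 33.2%). In Cav1-null mice between d12 and d15, where 0 were called, the count was 1 without a filter (Tmem119), 1 without the high-connective library (Tyrobp) and 0 to 1 over single omissions. For AKR/J against C57BL/6J on d12, where 2 were called, DESeq2 and library sizes alone gave 4 each (35.2% and 23.4% of all genes), no filter 3 (18.2%), all 27 libraries 5 (47%), and single omissions 0 (without C57BL/6J replicate 2, 0.122%) to 3 (39.9% and 28.1%). On d15, where 6 were called, the other settings gave 3 (all 27 libraries, 22.5% of all genes) to 7 (without high-connective libraries, 34.1%) and single omissions 4 to 6. For Cav1-null against C57BL/6J on d15, also with 6 called, they gave 4 (all 27 libraries, 35.1%) to 7 (library sizes alone, 61.2%) and single omissions 4 to 6. On d17 in AKR/J, where 0 were called, DESeq2, the likelihood ratio test and no filter gave 3 each, all 27 libraries 2, trend removal 1, omission of high-connective libraries 1, and single omissions 0 to 6 (0.258% to 26.4% of all genes). For Cav1-null mice on d17 single omissions gave 0 to 4 (0.00946% to 13.6%). The interactions, with 0 called, gave 1 with DESeq2 (4.83% of all genes) and 0 to 1 over single omissions for AKR/J early. They gave 0 to 1 for Cav1-null early, and for Cav1-null late 1 each with DESeq2, the likelihood ratio test and no filter, 4 without high-connective libraries (22.6% of all genes) and 0 to 4 over single omissions. The change of sign was that of P2ry12 in Cav1-null against C57BL/6J on d15, at -0.14 with the GC and length trend removed. The cause of these shifts was not tested.

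The replicate number as a block gave 2 microglia genes called in C57BL/6J between d15 and d17 (11.9% of all genes). It gave 2 in AKR/J against C57BL/6J on d17 (3.16% of all genes). In AKR/J against C57BL/6J it gave 3 on d12 (34% of all genes) and 4 on d15 (33.7%). On d15 Aif1 (adjusted p = 0.0511) and Cx3cr1 (adjusted p = 0.0652) lost their calls there. In Cav1-null against C57BL/6J on d15 it gave 5 (53.8% of all genes), without Aif1 (adjusted p = 0.0619). Same-numbered libraries of different groups did not deviate together. The correlation of their deviations lay between -0.384 and 0.224 over 108 pairs, so the numbers were not taken as a pairing.

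Scaling by library sizes alone shifted the centre of all log2 fold changes (their median) between d12 and d15 in AKR/J from 0.02 to 0.46, and the share of called genes that were higher from 51.4% to 74.7%. For AKR/J against C57BL/6J these went from 0.02 to -0.38 and from 50.6% to 30.2% on d12, and from 0.06 to 0.23 and from 45.7% to 62.8% on d15. For Cav1-null against C57BL/6J on d15 they went from 0.03 to 0.21 and from 45.7% to 59.2%, and in C57BL/6J between d15 and d17 from 0.03 to 0.17 and from 57.2% to 68.4%. For the interaction of AKR/J between d12 and d15 they went from 0.03 to 0.58 and from 6.67% to 83.2%. With 3 libraries a group and as few as 24 reads on Tmem119, changes within the counting error of so few reads were not detectable.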

Other observations

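Of 8 genes of border macrophages, which line the meninges and vessels, 1 was called in each comparison of days, and 2 in Cav1-null mice between d15 and d17. As a share of the 7 or 8 tested, each count was below the share of all genes called in its comparison, which ran from 13% to 28.9%. Cd163, a haemoglobin scavenger receptor, rose from d12 to d15 in C57BL/6J by a log2 fold change of 2.61 (SE 0.57, edgeR adjusted p = 0.032) and in Cav1-null mice by 2.89 (SE 0.83, adjusted p = 0.0363). From d15 to d17 Cd163 rose in AKR/J by 2.25 (SE 0.39, edgeR adjusted p = 0.00561). Pf4 fell from d12 to d15 in AKR/J by 3.46 on the log2 scale and rose from d15 to d17 in C57BL/6J by 1.09. In Cav1-null mice Cbr2 rose by 2.43 over the later days. Stab1, the most abundant gene of the list at 11.5 to 65.4 CPM, was lower than in C57BL/6J on d15 in AKR/J (-0.87) and in Cav1-null mice (-1.57).

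Of 8 genes of the phagocytic state of microglia, Spp1 rose from d15 to d17 in AKR/J by a log2 fold change of 1.44 (SE 0.43, edgeR adjusted p = 0.0434) and in Cav1-null mice by 1.9 (SE 0.40, adjusted p = 0.00302). Lgals3 fell from d12 to d15 in AKR/J by 3.01, and Lpl fell in Cav1-null mice by 0.84 on the log2 scale. Igf1, the most abundant, lay between 6.75 and 69.9 CPM. Bone-forming cells read Spp1 and other tissues read Igf1 as well.

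Among 15 genes of complement other than C1q, C4b rose in Cav1-null mice from d15 to d17 by a log2 fold change of 3.28 (SE 0.88, edgeR adjusted p = 0.0134) and C3 from d12 to d15 by 1.00 (SE 0.30, adjusted p = 0.0399). Cd59a, which red blood cells also hold, fell in AKR/J from d12 to d15 by 3.46, and Serping1 from d15 to d17 by 0.56. Cr1l was the most abundant, at 26.9 to 59.2 CPM. Of 12 genes shared by leukocytes, Cd52 fell in AKR/J from d12 to d15 by 3.14 and Cd68 in C57BL/6J by 0.70, while Mpeg1 rose in Cav1-null mice from d15 to d17 by 0.46. Lyz2 led this list, at 2.96 to 43.3 CPM.

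Monocyte and neutrophil genes fell in AKR/J from d12 to d15 for 4 of the 7 tested, beside 28.9% of all genes called in either direction, led by Plac8 (log2 fold change -5.27, SE 1.11, edgeR adjusted p = 0.0106), and S100a9 rose in C57BL/6J from d15 to d17 by 2.76. Prtn3 was their most abundant gene, at 2.44 to 7.72 CPM. Of the endothelial genes, Cldn5 rose in AKR/J from d12 to d15 by 1.31 and Cdh5 fell from d15 to d17 by 1.31, while in Cav1-null mice Pecam1 fell by 0.76 over the earlier days and Flt1 rose by 1.28 over the later days. Kdr was their most abundant gene, at 11.3 to 79.2 CPM. Of the neural genes, led by Dcx at 326 to 2120 CPM, Dcx rose from d12 to d15 in AKR/J by 2.02 and in C57BL/6J by 0.69. Nes, of neural progenitors, fell in Cav1-null mice by 1.63 over the earlier days, and over the later days it fell by 2.08 in C57BL/6J, 1.71 in AKR/J and 0.77 in Cav1-null mice. Of the red blood cell genes, led by Hbb-y at 0.177 to 168000 CPM, 9 were called lower in AKR/J on d15 than on d12. Hbb-bh1 led them with a log2 fold change of -10.36. Afp, the most abundant gene of placenta and yolk sac, lay between 0 and 1040 CPM.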
